A study of Danio rerio with 6 samples.

Results

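The genes described here belong to the hypoxia response, the set of genes with which animal cells sense a shortage of oxygen and adjust to it. They were taken by name: *higd1a*, *ddit4*, *hif1aa*, *hif1ab*, *egln1a*, *egln3*, *vhl*, *bnip3*, *vegfaa* and *arnt*. All 10 symbols were found among the 32057 gene identifiers of the count files. They matched 13 identifiers, 7 by their exact symbol and 6 by the name without its paralog letter. The name table lists 3 identifiers as EGLN1 and a pair as VEGFA without telling the paralogs apart, so *egln1a* and *vegfaa* are given below by identifier. *Hif1ab* was taken as the single identifier named HIF1A, since *hif1aa* has an identifier of its own. The genes were named with earlier results of the comparison between Mcpip1 WT and Mcpip1 DN in view, in which *higd1a* and *ddit4* were lower in Mcpip1 WT. The comparison of these groups is therefore given for all 13 identifiers as a description and without p-values. The 10 identifiers that passed a filter on low counts have standard errors, and the other 3 are given by their counts. Where a threshold on p is applied to them, this too is a description.

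Mcpip1, encoded by *zc3h12a*, is an RNase that degrades chosen mRNAs. Zebrafish embryos of the AB/TL line were injected at the 1-cell stage with *zc3h12a* mRNA and collected 6 hours after fertilization (6 hpf), at the shield stage, when gastrulation has begun. In 3 libraries the mRNA encoded the wild-type enzyme (Mcpip1 WT), and in 3 it encoded the catalytically inactive D112N form (Mcpip1 DN). Both mRNAs also carried the coding sequence of the fluorescent protein mTurquoise, and each library came from a pool of embryos picked as viable. Uninjected embryos and embryos given a control mRNA were not analysed here, so both groups had been given *zc3h12a* mRNA and the level without injection is not known from these libraries. The sources do not say whether the 3 pools of a group came from separate clutches or injections, so all tests measure the spread between these pools.

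In a cell with enough oxygen, prolyl hydroxylases of the Egln family modify the alpha subunit of hypoxia-inducible factor (HIF). The Vhl protein then binds the modified subunit and, with elongins, a cullin and Rbx1, marks it for destruction. When oxygen falls, the alpha subunit escapes this, pairs with Arnt and switches on target genes. In mammals these targets include the mitochondrial protein HIGD1A, the mTORC1 inhibitor DDIT4, the mitophagy receptor BNIP3, the vessel growth factor VEGFA and the hydroxylases EGLN1 and EGLN3 themselves. Much of the control by oxygen acts on the alpha protein, which counts of mRNA do not show.

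Total counts on genes were between 22581287 and 24662219 in the Mcpip1 WT libraries and between 17686041 and 23944732 in the Mcpip1 DN libraries. Levels below are normalized counts, that is, counts scaled to the mean effective library size. They are not corrected for gene length, so levels are compared between libraries and not between genes. *Zc3h12a*, which every pool had received, had 170239, 22302.5 and 22767 normalized counts in replicates 1, 2 and 3 of Mcpip1 WT, against 36491, 16111 and 7907 in Mcpip1 DN. A single library, Mcpip1 WT replicate 1, thus stood far above the other 5, and counts per gene do not tell the mRNA of Mcpip1 WT from that of Mcpip1 DN. On the first principal component of all tested genes, with 33.5% of the variance, Mcpip1 WT replicate 2 lay at 77.2 and Mcpip1 DN replicate 1 at 117. The other 4 libraries lay between -93.7 and -21.1, so the main axis of variation did not divide the groups. Markers of the margin and organizer, of endoderm, of the enveloping layer and of the yolk syncytial layer were counted in all 6 libraries. The 5 blood and endothelium markers summed to between 0 and 26.4 normalized counts in Mcpip1 WT embryos and to between 4.91 and 29.6 in Mcpip1 DN, and *hbae3* was at 0 in every library.

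Of the 13 identifiers, 10 passed the filter on low counts and were tested with all other genes in edgeR's quasi-likelihood test. Past the threshold of the study, a fold change over 1.5 at an unadjusted p under 0.05, were 2 of them, *higd1a* and *ddit4*, both lower in Mcpip1 WT. Among all 16126 genes tested, 2.14% passed this threshold in either direction, 1.27% as lower and 0.874% as higher in Mcpip1 WT. With the p alone, 2 of the 10 and 2.21% of all genes tested passed. Since the genes were named with this contrast known, nothing is read from the comparison of these shares. The same 2 genes were those in which the groups did not overlap, which was the case in 8.06% of all genes tested, 4.08% with Mcpip1 WT below and 3.97% with Mcpip1 WT above Mcpip1 DN. After Benjamini-Hochberg adjustment over all genes, edgeR's test left 0 of the series' genes under 0.05, and before it 356 genes had p under 0.05. DESeq2's Wald test had 436 genes with an unadjusted p under 0.05 and 1 with an adjusted p under 0.05, the heat shock gene HSP90AA1, which is outside the hypoxia genes.

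**Figure D1:**
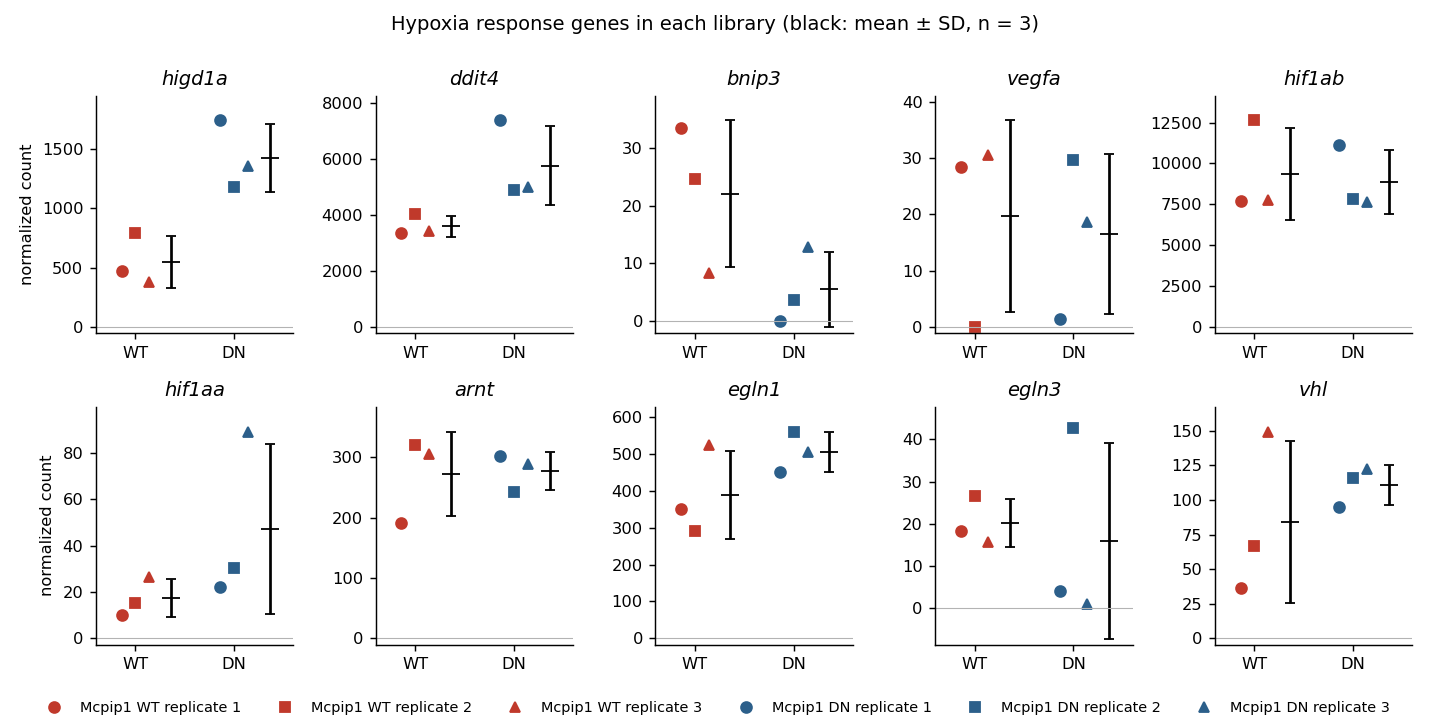
Normalized counts of the 10 hypoxia identifiers that passed the filter, in each of the 3 Mcpip1 WT libraries (red) and the 3 Mcpip1 DN libraries (blue), with linear axes and with the mean and SD in black. In *higd1a* and *ddit4* every Mcpip1 WT library is below every Mcpip1 DN library, and in the other 8 panels the groups overlap. The panel *egln1* shows ENSDARG00000004632 and the panel *vegfa* shows ENSDARG00000103542.

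*Higd1a* (ENSDARG00000022303) encodes a small protein of the inner mitochondrial membrane that associates with respiratory chain complexes and is induced by hypoxia in mammals. It had 470.5, 792 and 378 normalized counts in replicates 1, 2 and 3 of Mcpip1 WT, against 1738, 1179 and 1354 in Mcpip1 DN. All Mcpip1 WT libraries were low and all Mcpip1 DN libraries high, and the lowest Mcpip1 DN library was 1.49 times the highest Mcpip1 WT library. The mean was 547 ± 217 in Mcpip1 WT and 1424 ± 286 in Mcpip1 DN (SD, n = 3 each), a ratio of 0.384. On the log2 scale the fold change was -1.38 (standard error 0.34). In RNA of whole embryos, fewer cells that express a gene and less of its RNA per cell cannot be told apart. The raw counts behind these values, 458 to 774 in Mcpip1 WT and 1262 to 1380 in Mcpip1 DN, leave little counting error. *Higd2a* (ENSDARG00000052371), which encodes a related mitochondrial protein, averaged 405 ± 99.4 normalized counts in Mcpip1 WT embryos and 312 ± 55.9 in Mcpip1 DN (SD, n = 3 each). For this gene edgeR gave a log2 fold change of 0.38 (standard error 0.36) at an unadjusted p of 0.313.

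*Ddit4* (ENSDARG00000037618), also known as REDD1, restrains the growth kinase complex mTORC1 by way of Tsc1 and Tsc2. It had 3355, 4036 and 3437 normalized counts in the libraries of Mcpip1 WT, against 7393, 4890.5 and 5012 in the Mcpip1 DN libraries. The groups did not overlap, but they lay closer together than for *higd1a*, the lowest Mcpip1 DN library being 1.21 times the highest Mcpip1 WT library. The mean was 3609 ± 372 in Mcpip1 WT and 5765 ± 1411 in Mcpip1 DN (SD, n = 3 each), and the log2 fold change was -0.68 (standard error 0.25). Mcpip1 DN replicate 1 was the highest library by a wide margin. Without it the log2 fold change of *ddit4* was -0.46, below a fold change of 1.5, and without Mcpip1 WT replicate 1 or 3 the unadjusted p also came out above the threshold.

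*Higd1a* and *ddit4* ranked the libraries almost alike. Both genes were named for being lower in Mcpip1 WT, so only the order within each group was free to differ. The likeness is a description and no support for a shared control of these genes. In both, Mcpip1 DN replicate 1 was highest, followed by Mcpip1 DN replicates 3 and 2 and by Mcpip1 WT replicate 2. The only difference was the order of Mcpip1 WT replicates 1 and 3, the lowest libraries. Within each group the highest library was thus the one with the highest position on the first principal component, Mcpip1 WT replicate 2 or Mcpip1 DN replicate 1. The order of the other libraries did not follow this component. In both genes Mcpip1 DN replicate 3, at -93.7, was above Mcpip1 DN replicate 2, at -25.4. In *ddit4*, though not in *higd1a*, Mcpip1 WT replicate 1, at -21.1, was below Mcpip1 WT replicate 3, at -53.5. Leaving out both Mcpip1 WT replicate 2 and Mcpip1 DN replicate 1 was an alternative added after the data were seen. The log2 fold change was then -1.58 for *higd1a* and -0.54 for *ddit4*, the value of *ddit4* being below a fold change of 1.5. Mcpip1 WT replicate 1, the library with by far the most *zc3h12a*, lay between the other Mcpip1 WT libraries in *higd1a* and close to replicate 3 in *ddit4*.

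**Figure D2:**
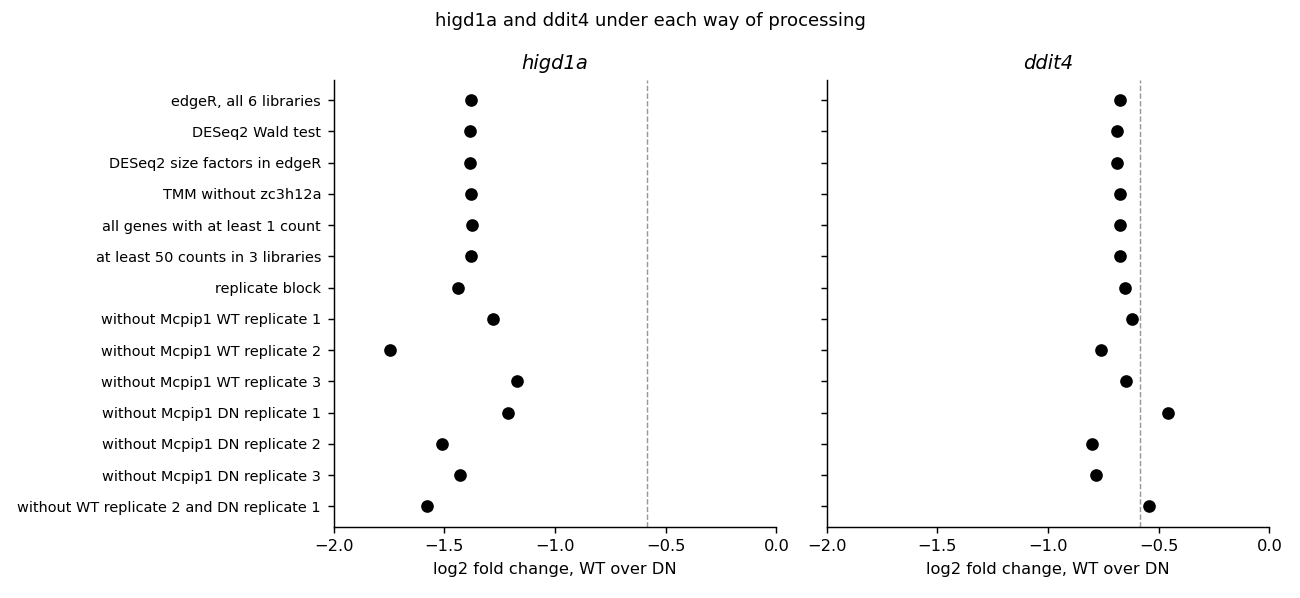
Log2 fold change of *higd1a* and *ddit4*, Mcpip1 WT over Mcpip1 DN, with all 6 libraries and under each of 13 other ways of processing the counts. The values lie between -1.74 and -1.17 for *higd1a* and between -0.80 and -0.46 for *ddit4*, and the dashed line marks a fold change of 1.5. Both genes were named for being lower in Mcpip1 WT, so the points describe the spread of the values and are no support for their direction.

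*Bnip3* (ENSDARG00000099961) encodes an outer mitochondrial membrane protein that recruits the autophagy machinery to mitochondria. It was counted 33, 24 and 10 times in the Mcpip1 WT libraries, against 0, 4 and 13 times in the Mcpip1 DN libraries. Its highest libraries were in Mcpip1 WT, on the other side from *higd1a* and *ddit4*, but Mcpip1 WT replicate 3 was below Mcpip1 DN replicate 3. With a log2 fold change of 1.96 and a standard error of 1.49, the difference was within the spread between libraries. The count of 0 in Mcpip1 DN replicate 1 allows up to 3 counts. The related receptors named BNIP3L, ENSDARG00000028067 and ENSDARG00000025468, had log2 fold changes of -0.04 and -0.09.

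Vegfa is the ligand that guides the growth of blood vessels, which have yet to form at the shield stage. ENSDARG00000103542, named VEGFA, had 28, 0 and 37 counts in the libraries of Mcpip1 WT, against 1, 32 and 19 counts in the Mcpip1 DN libraries. It was at or near 0 in a single library of each group, Mcpip1 WT replicate 2 and Mcpip1 DN replicate 1, which are those at the high end of the first principal component. The log2 fold change between the groups was 0.24 (standard error 1.55). The other identifier named VEGFA, ENSDARG00000034700, was below the filter with 16, 14 and 3 counts in Mcpip1 WT embryos and 0, 3 and 0 counts in Mcpip1 DN. Of the receptors for Vegf ligands, *kdrl* was tested, with a log2 fold change of -0.03 (standard error 1.08), and *flt1* and KDR were below the filter.

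*Hif1ab* (HIF1A, ENSDARG00000034293) encodes an alpha subunit of HIF. It had 7730.1, 12634 and 7788 normalized counts in the libraries of Mcpip1 WT, against 11143, 7826 and 7629 in the Mcpip1 DN libraries. The 2 high libraries, 1 in each group, were again Mcpip1 WT replicate 2 and Mcpip1 DN replicate 1, and the other 4 lay within a narrow range. The log2 fold change between the groups was 0.08 (standard error 0.29). Its sign turned without Mcpip1 WT replicate 2, to -0.19, and without Mcpip1 DN replicate 2 or 3, to -0.02 and -0.03. The summed level of the 6 margin and organizer markers was also highest in these libraries, at 78675 normalized counts in Mcpip1 WT replicate 2 and 81111 in Mcpip1 DN replicate 1. In the remaining libraries this sum was 57436 and 27127 in Mcpip1 WT embryos, against 37789.8 and 39675 in Mcpip1 DN embryos. Its largest part was *tbx16*, at 50300 in Mcpip1 WT replicate 2 and 53349 in Mcpip1 DN replicate 1. *Tbxta*, GSC and *chrd* were also highest in these libraries within their groups. *Noto*, however, was highest in Mcpip1 WT replicate 1 among the Mcpip1 WT libraries, and *tbx6* in Mcpip1 DN replicate 2 among those of Mcpip1 DN. The sums of the 3 endoderm markers, 7177 and 6214, and of the 4 enveloping layer markers, 157139 and 182645, were likewise highest in Mcpip1 WT replicate 2 and Mcpip1 DN replicate 1 within their groups. The single markers of these lists had the same highest libraries, except that *sox32* was highest in Mcpip1 DN replicate 2 and *krt18a.1* in Mcpip1 WT replicate 1. The sum of the 3 yolk syncytial layer markers was highest in replicate 1 of each group, at 6307 in Mcpip1 WT and 5616 in Mcpip1 DN. Whether embryo stage or cell composition has a part in these values was not tested.

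**Figure D3:**
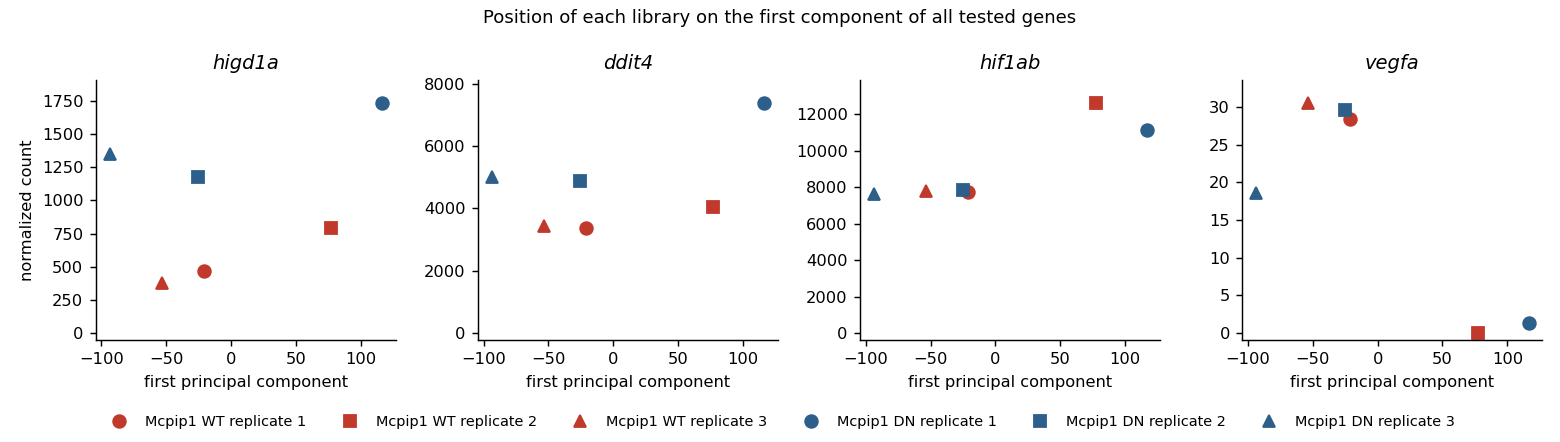
Normalized counts (linear axis) of *higd1a*, *ddit4*, *hif1ab* and the VEGFA identifier ENSDARG00000103542 against the position of each library on the first principal component of all tested genes. The libraries at 77.2 and 117, Mcpip1 WT replicate 2 and Mcpip1 DN replicate 1, are high in *hif1ab* and at or near 0 in *vegfa*. *Higd1a* and *ddit4* were named for being lower in Mcpip1 WT, and their groups do not overlap. Their lower Mcpip1 WT values on any part of the axis are therefore no support for this direction.

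*Hif1aa* (ENSDARG00000006181), its paralog, had few counts, with 10, 15 and 32 counts in the libraries of Mcpip1 WT, against 16, 33 and 91 counts in the Mcpip1 DN libraries. Replicate 3 was the highest library of each group and replicate 1 the lowest. Its log2 fold change was -1.44, about that of *higd1a*, but the standard error was 1.00 and the groups overlapped. Without Mcpip1 DN replicate 3 it was -0.61. *Arnt* (ENSDARG00000021855), the constant partner of the alpha subunit, had 192, 320.5 and 305 normalized counts in Mcpip1 WT embryos, against 302, 242 and 289 in Mcpip1 DN. The lowest of the 6 libraries was Mcpip1 WT replicate 1, and the log2 fold change was -0.03 (standard error 0.38).

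Among the hydroxylases, ENSDARG00000004632, the EGLN1 identifier that passed the filter, had 351, 292 and 524 normalized counts in Mcpip1 WT embryos, against 450.3, 561 and 505 in Mcpip1 DN. Mcpip1 WT replicates 1 and 2 were below all Mcpip1 DN libraries and Mcpip1 WT replicate 3 was among them. This gave a log2 fold change of -0.38 (standard error 0.35). ENSDARG00000038996, also named EGLN1, had at most 3 counts in any library, and ENSDARG00000105156 had none, which allows up to 3 counts in each.

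*Egln3* (ENSDARG00000032553), a hydroxylase gene that is itself a strong HIF target in mammals, had 18, 26 and 19 counts in Mcpip1 WT embryos, against 3, 46 and 1 counts in Mcpip1 DN. The Mcpip1 WT libraries were close together and the Mcpip1 DN libraries lay on both sides of them. The log2 fold change of 0.33 (standard error 1.38) depended on each Mcpip1 DN library. It was 2.93 without replicate 2, the highest, and turned negative without replicate 1 (-0.11) or replicate 3 (-0.21).

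*Vhl* (ENSDARG00000070617) encodes the subunit that recognizes hydroxylated HIF. It had 36.5, 66.6 and 149 normalized counts in Mcpip1 WT embryos, against 95.0, 116 and 123 in Mcpip1 DN. Mcpip1 WT replicate 3 was the highest of all libraries and Mcpip1 WT replicate 1 the lowest, so the Mcpip1 DN libraries lay within the range of Mcpip1 WT. For *vhl* the log2 fold change was -0.40 (standard error 0.62), and -1.10 without Mcpip1 WT replicate 3.

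**Figure D4:**
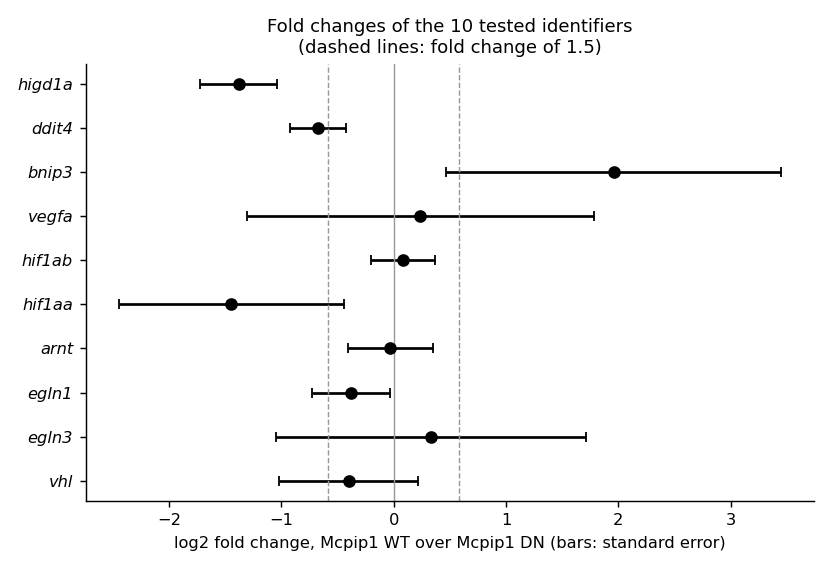
Log2 fold change, Mcpip1 WT over Mcpip1 DN, of the 10 hypoxia identifiers that passed the filter, from edgeR with all 6 libraries and with bars of 1 standard error. The values lie between -1.44 for *hif1aa* and 1.96 for *bnip3*, and the bars of the scarce genes *bnip3*, *vegfa*, *hif1aa* and *egln3* span 1 log2 unit or more on each side.

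The wider pathway was described with a list of 114 other symbols, grouped by role, of which 112 matched 110 identifiers and 81 passed the filter. None of the 81 was past the threshold of the study in edgeR's test, in either direction, against 2.14% of all genes tested. None had an unadjusted p under 0.05 in edgeR, and DESeq2's Wald test called none at the threshold either. Without Mcpip1 WT replicate 2, 5 were past it as lower and 2 as higher. In that fit 512 of all 16891 genes tested were past it as lower and 203 as higher. Without any other single library at most 2 pathway genes were past it. With all libraries the log2 fold changes of the 81 were positive in 26 and negative in 55, with a median of -0.11. Over all genes tested they were positive in 8187 and negative in 7939, with a median of 0.01. The groups did not overlap in 4 of the 81, or 4.94%, against 8.06% of all genes tested.

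The other HIF subunits, 5 identifiers, had log2 fold changes between -0.46 and 0.27. *Hif1al* (ENSDARG00000100826), the zebrafish Hif-3 alpha gene, averaged 3326 ± 1164 normalized counts in Mcpip1 WT embryos and 4562 ± 961 in Mcpip1 DN (SD, n = 3 each). Its log2 fold change was -0.46 (standard error 0.29, unadjusted p = 0.148 from edgeR). ENSDARG00000008697, named EPAS1 after the Hif-2 alpha subunit, had a log2 fold change of -0.28 (standard error 0.43). A second identifier of this name, ENSDARG00000057671, had 0.03 (standard error 0.41). ARNT2 (ENSDARG00000103697), a partner of alpha subunits related to Arnt, had 0.18 (standard error 0.28).

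Of the genes for oxygen sensing and HIF degradation outside those named above, all 7 that were tested had negative log2 fold changes, between -1.24 and -0.11, and none passed the threshold. The lowest was EGLN2 (ENSDARG00000062562), named after its values were seen, with a standard error of 1.18 and between 3 and 115 counts. The subunits of the Vhl ubiquitin ligase with the highest counts were ELOB, RBX1 and CUL2. Their log2 fold changes of -0.14, -0.11 and -0.20 were smaller in size than their standard errors of 0.29, 0.24 and 0.25. *Vhll* (ENSDARG00000078613), a relative of *vhl* named after its values were seen, had 44, 22 and 64 counts in Mcpip1 WT embryos, against 67, 77 and 75 counts in Mcpip1 DN. The groups did not overlap, and the log2 fold change was -0.98 with a standard error of 0.69. The list of HIF cofactors, which also held the regulators CITED2 and SIAH1, had 6 tested identifiers with values between -0.39 (CITED2) and -0.03. Among these were the acetyltransferases named CREBBP, ENSDARG00000112452 at -0.28 and ENSDARG00000104609 at -0.19, and EP300 (ENSDARG00000061108) at -0.17. The groups of ENSDARG00000112452 did not overlap, but they nearly touched, the lowest Mcpip1 DN library being 1.006 times the highest Mcpip1 WT library.

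**Figure D5:**
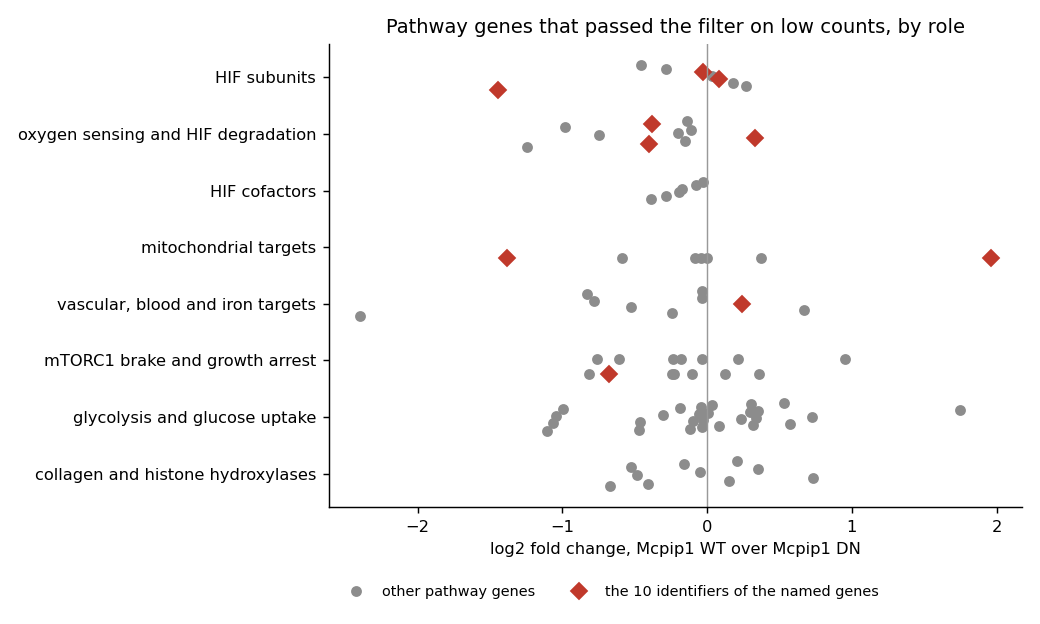
Log2 fold change, Mcpip1 WT over Mcpip1 DN, of the pathway genes that passed the filter, in rows by role, with the 10 identifiers of the named hypoxia genes as red diamonds and the other 81 in grey. *Higd1a* at -1.38 and *bnip3* at 1.96 are the outermost of the mitochondrial targets, and *ddit4* at -0.68 lies among the values of the other mTORC1 and growth genes.

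The list of mTORC1 and growth arrest genes that holds *ddit4* had 13 other tested identifiers, with 4 positive and 9 negative log2 fold changes. Among them were the activator *rheb* and the kinase MTOR beside inhibitors of the complex. The lowest was SESN1, an inhibitor, at -0.81 (standard error 0.77), and the highest was *rheb* at 0.95 (standard error 0.73). *Rheb*, MTOR, SESN1 and, below, TSC2 were named after their values were seen. *Sesn3* (ENSDARG00000015822), a stress-induced inhibitor of mTORC1, averaged 2889 ± 1125 normalized counts in Mcpip1 WT embryos and 4400.0 ± 2050 in Mcpip1 DN (SD, n = 3 each). Its log2 fold change was -0.61 (standard error 0.39, unadjusted p = 0.146 from edgeR). Of Tsc1 and Tsc2, through which Ddit4 acts, TSC1 (ENSDARG00000026048) had a log2 fold change of -0.24 (standard error 0.37). A second TSC1 identifier, ENSDARG00000057918, had -0.04 (standard error 0.32). TSC2 (ENSDARG00000103125) was on the other side, at 0.36 (standard error 0.27). For the hypoxia-induced gene NDRG1, ENSDARG00000032849 had -0.23 (standard error 0.25) and a second identifier, ENSDARG00000010420, had 0.12 (standard error 0.25).

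For glycolysis and glucose uptake, the best known metabolic arm of the HIF response, 27 of 40 identifiers were tested. These were evenly divided, with 13 positive and 14 negative log2 fold changes and a median of -0.03. The 13 below the filter included both identifiers named SLC2A1, and *pgk1* was not matched to any identifier. The genes with the highest counts differed in sign. GAPDH (ENSDARG00000043457), a glycolytic dehydrogenase, had a log2 fold change of 0.35 (standard error 0.25). The aldolase ALDOA (ENSDARG00000011665) had -0.46 (standard error 0.25), and the lactate transporter SLC16A3 (ENSDARG00000045051) had -0.04 (standard error 0.37). HK2 (ENSDARG00000101482), the hexokinase that traps glucose in the cell and a HIF target in mammals, was named after its values were seen. It had 560, 377 and 647 normalized counts in Mcpip1 WT embryos, against 358, 349.7 and 249 in Mcpip1 DN, and was the only tested gene of the list with all Mcpip1 WT libraries above all Mcpip1 DN libraries. EdgeR put it at a log2 fold change of 0.73 (standard error 0.35), where p was 0.0646 unadjusted and 1.00 adjusted.

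The mitochondrial targets outside the named genes had values between -0.59 and 0.38, with LONP1, a protease of the mitochondrial matrix, at -0.00 (standard error 0.31). Among the vascular, blood and iron targets, 8 were tested, 1 with a positive and 7 with negative log2 fold changes. *Ca9* (ENSDARG00000102300), a carbonic anhydrase and a classic HIF target in mammals, averaged 608 ± 328 normalized counts in Mcpip1 WT embryos and 876 ± 116 in Mcpip1 DN (SD, n = 3 each), with a log2 fold change of -0.53 (standard error 0.39). The transferrin receptor genes *tfr1a* and *tfr1b* had 0.67 (standard error 0.45) and -0.24 (standard error 0.61). *Epoa*, which encodes the red cell hormone erythropoietin and was named after its values were seen, had 52, 27 and 68 counts in Mcpip1 WT embryos, against 64, 76 and 78 counts in Mcpip1 DN. After normalization its groups did not overlap, and the log2 fold change was -0.78 (standard error 0.67). The list of collagen and histone hydroxylases also held other genes, such as LOXL2, ANKRD37 and INSIG2. Of its 10 tested genes, 4 had positive and 6 had negative values. Those with the highest counts were the demethylases *kdm3b* and KDM4B and the hydroxylase JMJD6, at -0.05, 0.15 and -0.16.

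The genes whose levels followed *higd1a* most closely over the 6 libraries were found by Pearson's r of log2 CPM with each of the other 16125 genes tested. They were NAT9, ARR3, STARD3NL, si:dkey-75a21.2 and NACC1, with r between 0.985 and 0.993. NAT9 (ENSDARG00000071425) had 98.4, 176 and 94.2 normalized counts in Mcpip1 WT embryos, against 321, 235 and 287 in Mcpip1 DN, and ranked the libraries in the same order as *higd1a*. For *ddit4* the 5 closest genes were SNU13, MAF1, zgc:194659, STX11 and si:dkey-17m8.1, with r between 0.982 and 0.989. SNU13 (ENSDARG00000069878), a core protein of small nuclear and nucleolar RNPs, had 1407, 1669 and 1480.0 normalized counts in Mcpip1 WT embryos, against 2721, 1786 and 1949.6 in Mcpip1 DN. All 10 of these genes shared the lower levels in Mcpip1 WT by which *higd1a* and *ddit4* were known. With 6 libraries, 52 genes had an r above 0.95 with *higd1a* and 50 with *ddit4*, so these values are a description of the libraries.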

How the data were processed

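Poly(A) RNA of 6 pools of zebrafish embryos was read on the Ion Proton. The authors aligned these reads to GRCz11 with STAR 2.7.10a, and with bowtie2 2.4.4 for unmapped reads, and deposited raw counts per Ensembl gene from htseq-count. Its version and strand setting are not given in the sources used here, so overlapping genes and close paralogs are uncertain. Between 16.5% and 26.1% of counts were in rows that name no gene and were left out. Groups and replicate numbers came from the sample titles.

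In R 4.3.3, genes were filtered with filterByExpr (minimum count 10), scaled by TMM and tested for Mcpip1 WT against Mcpip1 DN with edgeR 4.0.16 (glmQLFit, glmQLFTest, no covariates), with Benjamini-Hochberg adjustment over all 16126 genes. Each standard error was the fold change divided by the root of its F statistic. For log2 CPM, 0.5 counts were added. DESeq2 1.42.0, its size factors, TMM without *zc3h12a*, other filters, a replicate block and leaving out each library were the alternatives. The tests were tried on simulated data. Gene symbols came from a name table with 28988 identifiers. Named are the hypoxia genes, *zc3h12a*, any pathway gene past the threshold, the 3 genes with the highest counts of each pathway list, and the 5 genes most like *higd1a* and *ddit4*. Other genes were named after their values were seen. The members and lists were chosen with earlier results of these data known. No sequences were used here, and the planned count of promoter motifs was not run. Counts limit precision by counting error, and a count of 0 allows up to 3.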

Additional observations from a re-analysis of the deposited data

How the results depend on the processing

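Leaving out both Mcpip1 WT replicate 2 and Mcpip1 DN replicate 1 was added after the data were seen. Among the hypoxia genes, which were named with this contrast known, the number past the threshold as lower is a description and no support. It was 2 with all libraries and between 1 and 2 with 1 library left out, *ddit4* being lost without Mcpip1 WT replicate 1, Mcpip1 WT replicate 3 or Mcpip1 DN replicate 1, and it was 1 without the 2 libraries together. For *higd1a* the log2 fold change was between -1.74 and -1.17 and for *ddit4* between -0.80 and -0.46. Over all genes, 141 were higher and 204 lower in Mcpip1 WT, and this became 336 and 432 with all genes that had at least 1 count, 262 and 446 without the 2 libraries together, and between 69 and 291 higher and 75 and 512 lower with 1 library left out. Both numbers were lowest without Mcpip1 WT replicate 1, and the higher genes were most without Mcpip1 WT replicate 3 and the lower genes without Mcpip1 WT replicate 2. The cause was not tested. Among the 81 other pathway genes, 0 were past the threshold in either direction with all libraries. With all genes that had at least 1 count, 107 pathway genes were tested, of which 1 was higher and 2 were lower. The higher one, *edn1*, was outside the 81, with 31, 0 and 2 counts in Mcpip1 WT and 0 in each Mcpip1 DN library. Without the 2 libraries together 1 pathway gene was higher and 5 were lower. With 1 library left out between 0 and 2 were higher and between 0 and 5 lower, the most without Mcpip1 WT replicate 2. With the replicate block 2 pathway genes, SESN1 and HIF1AN, were lower, and 144 genes were higher and 288 lower in all. The correlation of same-numbered libraries in their deviations from the group means was 0.00866, -0.0653 and 0.244 for numbers 1, 2 and 3. The value for number 3 was the highest of any Mcpip1 WT and Mcpip1 DN library, while Mcpip1 WT replicate 2 correlated best with Mcpip1 DN replicate 1 (0.241). These correlations cannot show whether pools of the same number shared a clutch or an injection. *Zc3h12a* had a log2 fold change of 1.83 (unadjusted p = 0.0391 in edgeR), and was not past the threshold under DESeq2 (1.79, unadjusted p = 0.124) or without Mcpip1 WT replicate 1 (0.16), Mcpip1 DN replicate 2 (1.65) or Mcpip1 DN replicate 3 (1.41). Among the named genes that were followed through the alternatives, changes of sign were seen in 15, none of them past the threshold with all libraries. EPAS1 and TSC1 are here ENSDARG00000008697 and ENSDARG00000026048. With 1 library left out, the log2 fold change was between -0.19 and 0.28 for *hif1ab*, -0.21 and 2.93 for *egln3*, -0.29 and 0.95 for *vegfa*, -0.16 and 0.17 for *arnt*, -0.52 and 0.057 for EPAS1, -0.42 and 0.042 for ELOB, -0.53 and 0.25 for CREBBP (ENSDARG00000104609), -0.18 and 0.18 for BNIP3L, -0.21 and 0.17 for LONP1, -0.90 and 0.17 for *tfr1b*, -0.69 and 0.059 for TSC1, -0.47 and 0.27 for SLC16A3, -0.34 and 0.16 for *kdm3b*, 0.02 and 0.27 for KDM4B and -0.52 and 0.16 for JMJD6. Without the 2 libraries together it was -0.36 for *egln3*, 0.27 for LONP1, 0.049 for SLC16A3 and -0.0049 for KDM4B, and with the block 0.018 for LONP1. The scarce genes *bnip3*, *vegfa*, *egln3* and *hif1aa* had standard errors of 1.00 to 1.55, so differences of 2-fold were not detectable in them.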

Other observations

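HIF1AN (ENSDARG00000031915) encodes the asparaginyl hydroxylase that blocks the transcriptional activity of HIF, and was named after its values were seen. It had 438, 487 and 1084 normalized counts in Mcpip1 WT, against 861, 1446 and 1071 in Mcpip1 DN. Mcpip1 WT replicates 1 and 2 were below every Mcpip1 DN library, and replicate 3 lay among them. EdgeR gave a log2 fold change of -0.75 (standard error 0.39) at a p of 0.0799 unadjusted and 1.00 adjusted, and it was -1.28 without Mcpip1 WT replicate 3, with an unadjusted p of 0.00388. HIF1AN also passed the threshold with all genes that had at least 1 count, in edgeR at an unadjusted p of 0.0309. The replicate block gave an unadjusted p of 0.0458 and leaving out Mcpip1 DN replicate 1 gave 0.0497, both past the threshold. HIF1AN did not pass under the other alternatives, DESeq2's Wald test among them. Over all genes, calls as lower were 204 with all libraries and 421 without Mcpip1 WT replicate 3. They were 432 with all genes that had at least 1 count, 288 with the replicate block and 176 without Mcpip1 DN replicate 1. Over its alternatives the unadjusted p of HIF1AN was between 0.00388 and 0.257.

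Leaving out Mcpip1 WT replicate 2 brought 7 pathway genes past the threshold of the study, of which HK2, TPI1, PFKFB4 and P4HA2 were named after their values were seen. Calls rose over all genes as well, to 203 higher and 512 lower of 16891 tested, from 141 and 204 of 16126 with all libraries. Of the 7 genes, *ca9*, PFKFB4 (ENSDARG00000029075), *hif1al*, P4HA2 and ALDOA were lower in Mcpip1 WT in that fit. Their log2 fold changes were -1.04, -1.04, -0.77, -0.99 and -0.64. Higher were HK2 and TPI1 (ENSDARG00000025012), with 0.92 and 0.84. With all 6 libraries none of them passed. Without Mcpip1 WT replicate 2, HK2 and this TPI1 identifier thus had the other sign from ALDOA and from PFKFB4, a kinase that sets the level of an activator of glycolysis. In the fit with all libraries, TPI1 (ENSDARG00000025012) was at 0.57 (standard error 0.39) and PFKFB4 (ENSDARG00000029075) at -0.47 (standard error 0.37). There the other TPI1 identifier, ENSDARG00000040988, was at 0.08 (standard error 0.23) and *pfkfb4a* at -0.06 (standard error 0.68). With these standard errors, whether the paralogs differ from them is not settled. *Sesn3* was past the threshold without Mcpip1 DN replicate 3, where its log2 fold change was -0.91. It also passed with all genes that had at least 1 count, at -0.60.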
